A study of Homo sapiens with 27 samples.

Results

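The genes described here are 33 genes of the amino acid branch of the integrated stress response in RM82, an established Ewing sarcoma cell line. They comprise the transcription factor ATF4, 18 of its known target genes and 14 aminoacyl-tRNA synthetases. Members were found by gene symbol: every transcript in the RM82 nanopore count files whose GENCODE 44 symbol was one of the 33 names was taken. This gave 270 transcripts of 32 genes, out of 93530 transcripts and 18776 genes with counts. CHAC1, a glutathione-degrading enzyme, had no counted transcript, and 0 of 2715216 counts over the 6 libraries allows a level of up to 1.10 CPM (counts per 1000000 counts, counting error only). Of the 270 transcripts, 131 belonged to ATF4 and its targets and 139 to the synthetases.

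ATF4 is made when stress kinases phosphorylate the initiation factor eIF2, which lowers bulk protein synthesis while favouring translation of the ATF4 message. ATF4 then binds composite C/EBP-ATF response elements and raises transcription of genes for amino acid synthesis, amino acid import and tRNA charging. Aminoacyl-tRNA synthetases attach each amino acid to its tRNA, so they use what the enzymes and transporters supply.

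The study developed homotrimer unique molecular identifiers (UMIs), in which each base of the identifier is written as a block of 3 identical bases so that PCR and sequencing errors can be corrected by majority. RM82 cells received SGC-CLK-1, an inhibitor of the splicing kinase CLK1, for a day, or the solvent dimethylsulfoxide (DMSO) as the negative control, and their cDNA was sequenced on Oxford Nanopore flow cells. There were 3 libraries labelled SGC-CLK-1 and 3 labelled DMSO, all from the same parental line with no other agent or genetic change named. Total deduplicated counts per library ran from 362826 to 666702, and the 33 genes held 969 to 2128 of them. The study states that its experiments were repeated independently, but the labels do not tie these libraries to separate cultures, so p-values measure the spread between these samples, which may be technical. The direction of every difference below rests on the deposited labels. In plots of single genes in the study the group names appeared exchanged relative to those labels, and the labels were not checked by any other measurement here.

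ATF4 recognises the half-site pair written TGATGCAA. This motif was searched on both strands, together with the looser form TGATGNAA, of which TGATGCAA is 1 case. The search ran from 250 bases before to 50 bases after the transcription start of each promoter. That start can lie inside the gene, and distances are given from it. Promoters were RefSeq sequences of GRCh38.p14, and 26 of the 33 genes matched an entry. SHMT2, SLC7A11, VARS1, YARS1, PYCR1, PSPH and LARS1 had none. TGATGNAA occurred in 11 of the 26 promoters (42.3%), against 4.46% of the 27305 genes in the table. It was found in 7 of 11 synthetase promoters (63.6%) and in 4 of 15 promoters of ATF4 and its targets (26.7%). The strict form TGATGCAA was present in 8 of 26 (30.8%) against 1.08% of all genes. The sequences shown are those of the 3 genes described in detail below whose promoter held a match, and of 2 synthetases with a match whose levels overlapped between the groups. Each is read 5′ to 3′ on the strand of its gene, and capitals mark the match. Where the motif lies on the other strand it reads TTGCATCA.
TARS1: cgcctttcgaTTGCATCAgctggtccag
SLC1A5: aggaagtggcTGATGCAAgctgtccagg
ASNS: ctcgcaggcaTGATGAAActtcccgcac
IARS1: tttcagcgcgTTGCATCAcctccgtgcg
CARS1: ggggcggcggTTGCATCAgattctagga

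The TARS1 stretch lies at chr5:33440957-33440984 on the plus strand, with its match starting at transcribed base 3. The SLC1A5 stretch is at chr19:46784894-46784921 on the minus strand, 97 bases upstream of the start used. That start lies inside the gene, whose outermost transcript start is at chr19:46788594. That of ASNS is at chr7:97872459-97872486 on the minus strand, 68 bases upstream. The IARS1 stretch is at chr9:92293693-92293720 and that of CARS1 at chr11:3057408-3057435, both on the minus strand, with the matches starting 13 and 2 bases upstream. Among the 11 genes with a match, 9 were abundant enough to be tested for expression, and the fitted log2 fold change was above 0 for 6 of these and below 0 for 3, with a median of 0.12. A match is a stretch of letters and was not tested for binding here.

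The libraries were first compared with one another. On the first principal component, which held 35.6% of the variance, the SGC-CLK-1 libraries lay at 6.44, 12.95 and 12.86 and the DMSO libraries at -6.67, -2.66 and -22.93. DMSO replicate 3 therefore stood apart from the others on this component. On the second, which held 23.3% of the variance, it lay at -12.26, beside SGC-CLK-1 replicate 3 at -12.96. The other libraries lay there between -0.23 and 15.31. Of 11 genes taken as markers of Ewing sarcoma, 9 had counts in the RM82 libraries, among them CAV1 (8845 counts), STEAP2 (3646 counts), CCND1 (1464 counts) and CD99 (335 counts), whereas NKX2-2 and FLI1 were at 0 in all 6 libraries. The ETS factor ERG had 308 counts. The leukocyte list of 4 genes had 42 counts, all of them from PTPRC, with 7, 8 and 12 in the SGC-CLK-1 libraries and 8, 3 and 4 in the DMSO libraries, and CD3E, CD3D and CD2 were at 0. Plasma cell markers were read because another human line of the series is a myeloma line. They had 32 counts from 4 of 8 genes, with 15, 2 and 8 in SGC-CLK-1 and 2, 2 and 3 in DMSO. POU2AF1 led with 16 counts, 5, 1 and 3 in SGC-CLK-1 and 2, 2 and 3 in DMSO. XBP1 had 10, 1 and 0 counts in SGC-CLK-1 and PRDM1 had 0, 0 and 4, and both were at 0 in DMSO. SDC1, TNFRSF17, MZB1 and IRF4 were at 0. The part of these markers in the results was not tested.

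Levels below are gene sums, that is, the counts of all transcripts of a gene added together, as CPM of the scaled counts on tested genes. Wherever 3 values are given for a group they are replicates 1, 2 and 3. After genes with too few counts were removed, 24 of the 33 genes were tested among 6344 genes. None of the 24 passed an adjusted p of 0.05 in the quasi-likelihood test of edgeR, Benjamini-Hochberg adjusted over all genes, where the background over all genes was 0.236% (15 genes, 8 lower and 7 higher in SGC-CLK-1). DESeq2 called 1 of the 24, DDIT3, against a background of 1.69%, and edgeR with no filter on low counts called ATF4 and DDIT3 out of 32 members, against 0.900%. At an unadjusted p under 0.05, 3 members were higher (TARS1, PSAT1, SLC1A5) and 3 lower (DDIT3, ATF4, PYCR1), out of 24, against 13.9% of all genes (6.89% higher, 6.97% lower). Groups did not overlap for 6 of the 24 members (3 higher, 3 lower), against 19.7% of all genes (10.0% higher, 9.71% lower). As these are bulk samples, fewer cells carrying a message and less RNA per cell cannot be told apart.

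The role groups differed in where their members lay, counted here and for the lists below by the sign of the fitted log2 fold change. All 3 tested regulators were lower in SGC-CLK-1, with a median of -1.16 on the log2 scale. The 7 tested enzymes divided into 4 higher and 3 lower with a median of 0.14, and both tested transporters were higher with a median of 0.54. The 12 tested synthetases divided evenly, 6 higher and 6 lower, with a median of 0.02 (8 and 4 with library size as the scale), and 2 of the lower ones, EPRS1 and MARS1, were so close to 0 that their mean CPM was slightly higher in SGC-CLK-1, while the median over all genes was -0.00. ATF4 and its tested targets together also divided evenly, 6 and 6, with a median of -0.07, which lay between -0.33 and 0.16 over the alternative settings. Their median absolute log2 fold change was 0.53, against 0.23 for the synthetases and 0.32 for all genes. These medians describe lists chosen with earlier results known and carry no test.

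Summed over a role, the regulators stood at 212, 128 and 109 CPM in the SGC-CLK-1 libraries and at 353, 271 and 350 CPM in the DMSO libraries. The highest SGC-CLK-1 library lay below the lowest DMSO library, and the means were 150 ± 54.6 and 324 ± 46.6 CPM (SD, n = 3 each). Enzymes summed to 1087 ± 188 CPM in SGC-CLK-1 and 1109 ± 144 CPM in DMSO, a difference well inside the spread. Transporters came to 153 ± 30.7 against 126 ± 43.3 CPM, and synthetases to 2167 ± 209 against 1934 ± 217 CPM, and in both the groups overlapped.

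**Figure D1:**
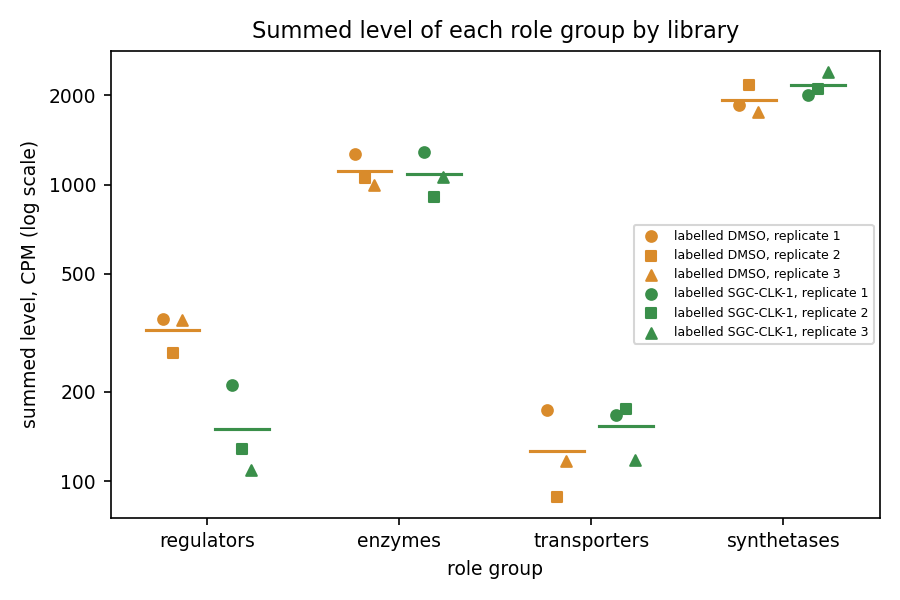
Summed level in CPM (log axis) of the regulators, enzymes, transporters and synthetases in each of the 6 RM82 libraries, with points for libraries, marker shapes for replicate numbers and short lines for group means. The regulators, at 109 to 212 CPM in the SGC-CLK-1 libraries and 271 to 353 CPM in the DMSO libraries, are the group whose points do not overlap.

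Of the tested regulators, ATF4 itself and DDIT3 had the lowest log2 fold changes. ATF4 (ENSG00000128272, chr22:39519695-39522683, plus strand, hg38) was at 93.0, 78.1 and 33.4 CPM in the SGC-CLK-1 libraries and at 207, 111 and 153 CPM in the DMSO libraries. All SGC-CLK-1 libraries were below all DMSO libraries, and replicate 3 of SGC-CLK-1 was the lowest of the 6. The log2 fold change was -1.16 (SE 0.36), which did not pass the test (edgeR adjusted p = 0.146). Over 14 alternative settings it lay between -1.51 and -0.87, with adjusted p from 0.0467, where no gene was filtered out, to 0.389. Processed pseudogenes of ATF4 held 2, 2 and 1 counts in all, against 259 on ATF4.

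DDIT3 (ENSG00000175197, chr12:57516588-57521737, minus strand) encodes CHOP, a transcription factor of the stress response that ATF4 induces. It was at 22.4, 12.5 and 27.3 CPM in the SGC-CLK-1 libraries and at 56.0, 79.6 and 86.6 CPM in the DMSO libraries. The groups did not overlap. Its log2 fold change of -1.80 (SE 0.42) was the lowest among the 24 members and had the smallest adjusted p of them, 0.0748 in edgeR's test. DESeq2 gave -1.83 with an adjusted p of 0.0411, and over 12 alternative settings the adjusted p ran from 0.0276 to 0.245. The difference rests on few molecules, because the sum of 107 counts adds 5 transcripts on which the same read can be counted. The most abundant DDIT3 transcript, ENST00000551116, had 4, 1 and 4 counts in SGC-CLK-1 and 7, 11 and 8 in DMSO, and no single transcript of DDIT3 was abundant enough to be tested. DDIT3 also overlaps MARS1 over 982 bases on the opposite strand, and MARS1 had a log2 fold change of -0.00 (SE 0.44).

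ATF5, a related factor whose translation is controlled like that of ATF4, was at 82.7, 31.2 and 42.5 CPM in SGC-CLK-1 and at 70.0, 61.4 and 99.9 CPM in DMSO. Its groups overlapped, since replicate 1 of SGC-CLK-1 exceeded 2 of the DMSO libraries, and the log2 fold change was -0.49 (SE 0.40, edgeR adjusted p = 0.640). The mTORC1 inhibitors DDIT4 and SESN2 and the pseudokinase TRIB3, which restrains ATF4, had 12, 9 and 9 counts over all 6 libraries and were not tested. A difference in these 3 genes was not detectable at this depth.

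**Figure D2:**
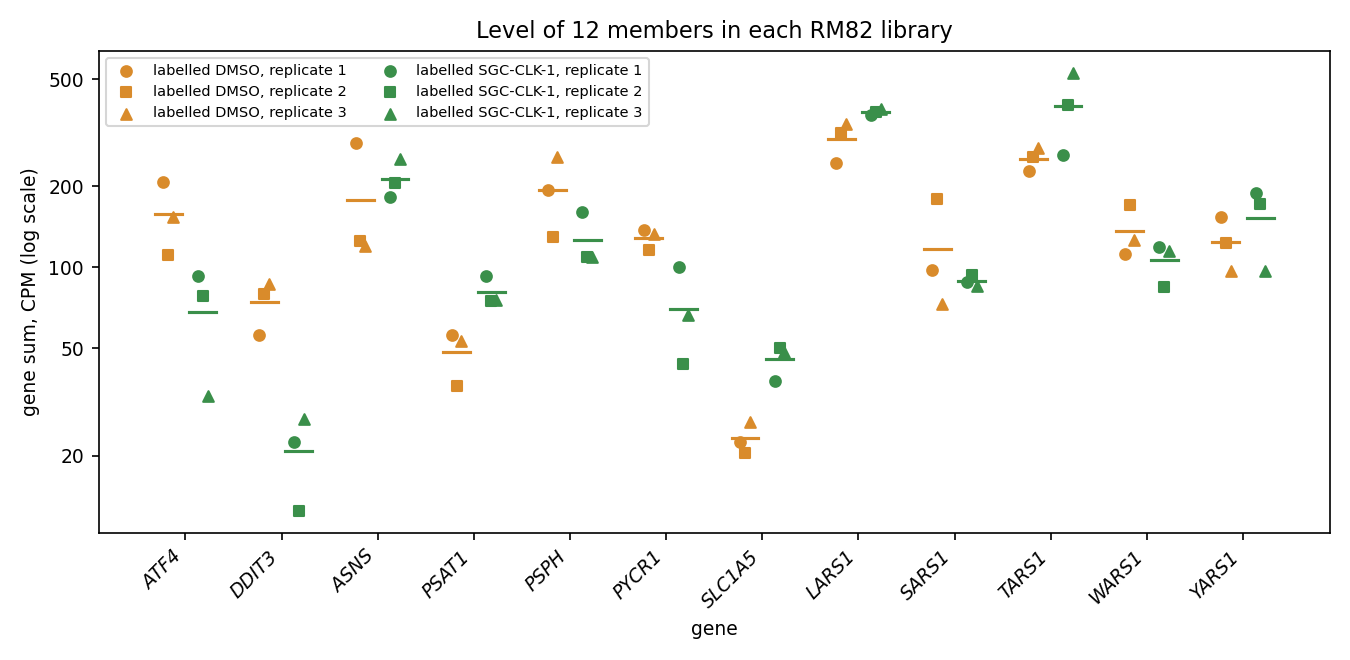
Level in CPM (log axis) of the 12 members with the smallest p in either direction, in each RM82 library, with points for libraries, marker shapes for replicate numbers and short lines for group means. ATF4, DDIT3 and PYCR1 have all SGC-CLK-1 points below all DMSO points, PSAT1, SLC1A5 and LARS1 the reverse, and the other 6 genes overlap.

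Among the enzymes, members of the same pathway lay on opposite sides. PSAT1 and PSPH carry out successive steps of serine synthesis, downstream of PHGDH, which makes the first. PSAT1 (chr9:78297125-78330093, plus strand) was at 93.0, 75.0 and 75.9 CPM in SGC-CLK-1 and at 56.0, 36.4 and 53.3 CPM in DMSO. Every SGC-CLK-1 library was above every DMSO library, and the log2 fold change was 0.76 (SE 0.34, edgeR adjusted p = 0.332). PSPH was at 160, 109 and 109 CPM in SGC-CLK-1 and at 193, 130 and 257 CPM in DMSO. Replicate 1 of SGC-CLK-1 lay above DMSO replicate 2, so the groups overlapped, and the log2 fold change was -0.58 (SE 0.29, edgeR adjusted p = 0.403). PHGDH ran from 212 to 467 CPM in SGC-CLK-1 and from 213 to 387 CPM in DMSO, with a log2 fold change of 0.17 (SE 0.29).

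PYCR1, the mitochondrial enzyme that makes proline in its last step (chr17:81932384-81942412, minus strand), was at 99.9, 43.7 and 66.8 CPM in SGC-CLK-1 and at 137, 116 and 133 CPM in DMSO. No SGC-CLK-1 library reached the lowest DMSO library, and the log2 fold change was -0.83 (SE 0.32, edgeR adjusted p = 0.253). ALDH18A1, which acts earlier in proline synthesis, had 59 counts in all and was not tested.

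ASNS, the asparagine synthetase and a classical ATF4 target, was at 183, 206 and 252 CPM in SGC-CLK-1 and at 288, 125 and 120 CPM in DMSO. DMSO replicate 1 was the highest of the 6 libraries and the other DMSO libraries the lowest, so the groups overlapped, with a log2 fold change of 0.26 (SE 0.32, edgeR adjusted p = 0.783). The enzymes of mitochondrial one-carbon metabolism, SHMT2 and MTHFD2, had log2 fold changes of -0.27 (SE 0.46) and 0.14 (SE 0.24), and both overlapped between groups, although MTHFD2 did not with library size as the scale.

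Of the transporters, SLC1A5, which imports glutamine and other neutral amino acids (chr19:46774883-46788594, minus strand), was at 37.9, 50.0 and 48.6 CPM in SGC-CLK-1 and at 22.4, 20.5 and 26.7 CPM in DMSO. The groups did not overlap, and the log2 fold change was 0.96 (SE 0.45, edgeR adjusted p = 0.356). This rests on few counts, as its most abundant transcript had 7, 4 and 4 counts in SGC-CLK-1 and 2, 3 and 1 in DMSO. SLC3A2, the heavy chain that brings amino acid exchangers to the cell surface, had a log2 fold change of 0.12 (SE 0.35). Its light-chain partners SLC7A5, which carries large neutral amino acids, and SLC7A11, which exchanges cystine for glutamate, had 13 and 18 counts in all and were not tested.

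**Figure D3:**
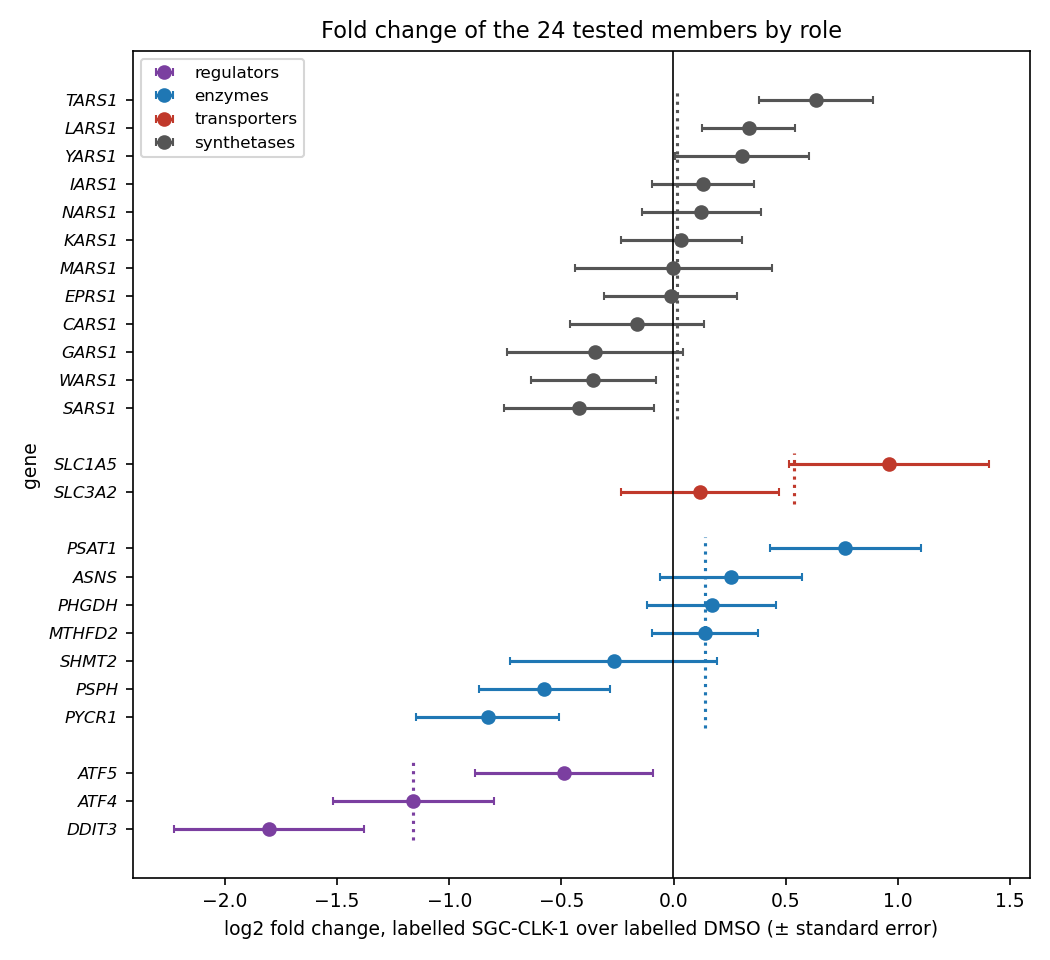
Log2 fold change of gene sums, libraries labelled SGC-CLK-1 over those labelled DMSO, with standard errors, for the 24 tested members by role; dotted lines mark each role's median and the solid line the median of all genes at -0.00. Regulators lie between -1.80 and -0.49, whereas synthetases lie between -0.42 and 0.63.

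The synthetases spanned log2 fold changes from -0.42 to 0.63. TARS1, which charges threonine (ENSG00000113407, chr5:33440696-33468091, plus strand), was the highest, at 262, 400 and 528 CPM in SGC-CLK-1 and 227, 257 and 277 CPM in DMSO. Replicates 2 and 3 of SGC-CLK-1 were above all DMSO libraries, and replicate 1 fell within their range. The log2 fold change was 0.63 (SE 0.25, edgeR adjusted p = 0.279). LARS1, the leucine enzyme and a sensor of leucine for mTORC1 (chr5:146110566-146182696, minus strand), was at 369, 378 and 388 CPM in SGC-CLK-1 and at 244, 316 and 340 CPM in DMSO. Its groups did not overlap, which with library size as the scale held for TARS1 as well, and its fold change was small, 0.34 on the log2 scale (SE 0.21, edgeR adjusted p = 0.509).

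YARS1, the tyrosine enzyme, was at 189, 172 and 97.1 CPM in SGC-CLK-1 and at 154, 123 and 96.6 CPM in DMSO, with a log2 fold change of 0.30 (SE 0.30). SARS1, the serine enzyme, was at 87.9, 93.7 and 85.0 CPM in SGC-CLK-1 and at 98.03, 180 and 73.3 CPM in DMSO. Its log2 fold change of -0.42 (SE 0.33) rested on DMSO replicate 2, and was 0.03 without that library. WARS1, the tryptophan enzyme, was at 119, 84.4 and 115 CPM in SGC-CLK-1 and at 112, 171 and 127 CPM in DMSO, with a log2 fold change of -0.36 (SE 0.28). All 3 genes overlapped between the groups, with edgeR adjusted p values of 0.717 for YARS1, 0.628 for SARS1 and 0.621 for WARS1.

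The remaining 7 tested synthetases lay between -0.35 and 0.13. GARS1 (glycine) and CARS1 (cysteine) had log2 fold changes of -0.35 (SE 0.39) and -0.16 (SE 0.30). The bifunctional EPRS1 (glutamate and proline), MARS1 (methionine) and KARS1 (lysine) came to -0.01 (SE 0.30), -0.00 (SE 0.44) and 0.03 (SE 0.27), and NARS1 (asparagine) and IARS1 (isoleucine) to 0.12 (SE 0.27) and 0.13 (SE 0.23). With standard errors of this size, shifts of a similar magnitude would not have been detectable. AARS1 (alanine) had 26, 17 and 7 counts in SGC-CLK-1 and 10, 7 and 8 in DMSO, and VARS1 (valine) had 2, 2 and 2 against 1, 0 and 0, so neither was tested.

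Because DMSO replicate 3 stood apart on the first component, the 12 genes were also fitted without it. ATF4 was then at -1.18, DDIT3 at -1.70 and PYCR1 at -0.81 on the log2 scale, and TARS1 at 0.69, PSAT1 at 0.83, SLC1A5 at 1.05 and LARS1 at 0.42. SARS1 and WARS1 were at -0.66 and -0.42. PSPH was at -0.33, YARS1 at 0.16 and ASNS at 0.04, each closer to 0 than with all 6 libraries. The smallest edgeR adjusted p among the 12 was then 0.168, for DDIT3. Other single libraries moved some of the 12 by over 1.5 times. ASNS was at 0.78 without DMSO replicate 1, 0.03 without DMSO replicate 2 and 0.10 without SGC-CLK-1 replicate 3. YARS1 was at 0.09 and 0.52 without SGC-CLK-1 replicates 1 and 3, and at 0.47 without DMSO replicate 1. TARS1 was at 0.36 without SGC-CLK-1 replicate 3 and LARS1 at 0.19 without DMSO replicate 1. WARS1 was at -0.17 without DMSO replicate 2 and at -0.24 without SGC-CLK-1 replicate 2. From the most abundant transcript alone YARS1 was at 0.74, and from coding transcripts alone YARS1 was at 0.68 and WARS1 at -0.22.

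Single transcripts gave a finer view but with shared reads. Of the 270 member transcripts, 39 in 18 genes were abundant enough for the test among 7840 transcripts. None of the 39 passed an adjusted p of 0.05 in edgeR's test, against a background of 3.95%, and DESeq2 called none of them either, against 1.44%. At an unadjusted p under 0.05, 7 were higher and 3 lower, against 18.0% of all transcripts (8.93% higher, 9.11% lower). Groups did not overlap for 7 higher and 4 lower transcripts, against 22.9% of all (11.7% higher, 11.2% lower). All 3 lower transcripts at that unadjusted p were those of ATF4, and 6 of the 7 higher ones belonged to TARS1 (4 transcripts) and LARS1 (2 transcripts), the other to PSAT1.

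The 3 ATF4 transcripts were counted almost in parallel. ENST00000404241 had 19, 9 and 4 counts in the SGC-CLK-1 libraries and 25, 17 and 17 in the DMSO libraries. ENST00000396680 had 19, 8 and 4 against 25, 17 and 17, a difference of at most 1 count in any library. ENST00000337304 had 16, 8 and 3 against 24, 15 and 12. Their log2 fold changes were -0.996, -1.04 and -1.02, with edgeR adjusted p values of 0.135, 0.114 and 0.164. These are not 3 independent measurements, since the aligner kept up to 3 secondary alignments per read and 1 read can be counted on several transcripts.

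The same held widely among the members. In 7 of 18 genes with a tested transcript, the leading pair of transcripts differed by 2 counts or fewer in every library, as in PSPH, PYCR1, SARS1 and IARS1. The gene sum was a median of 2.68 times the count of the most abundant transcript, from 1.21 times in PSAT1 to 4.79 times in PHGDH. A gene sum is therefore not a number of molecules.

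**Figure D4:**
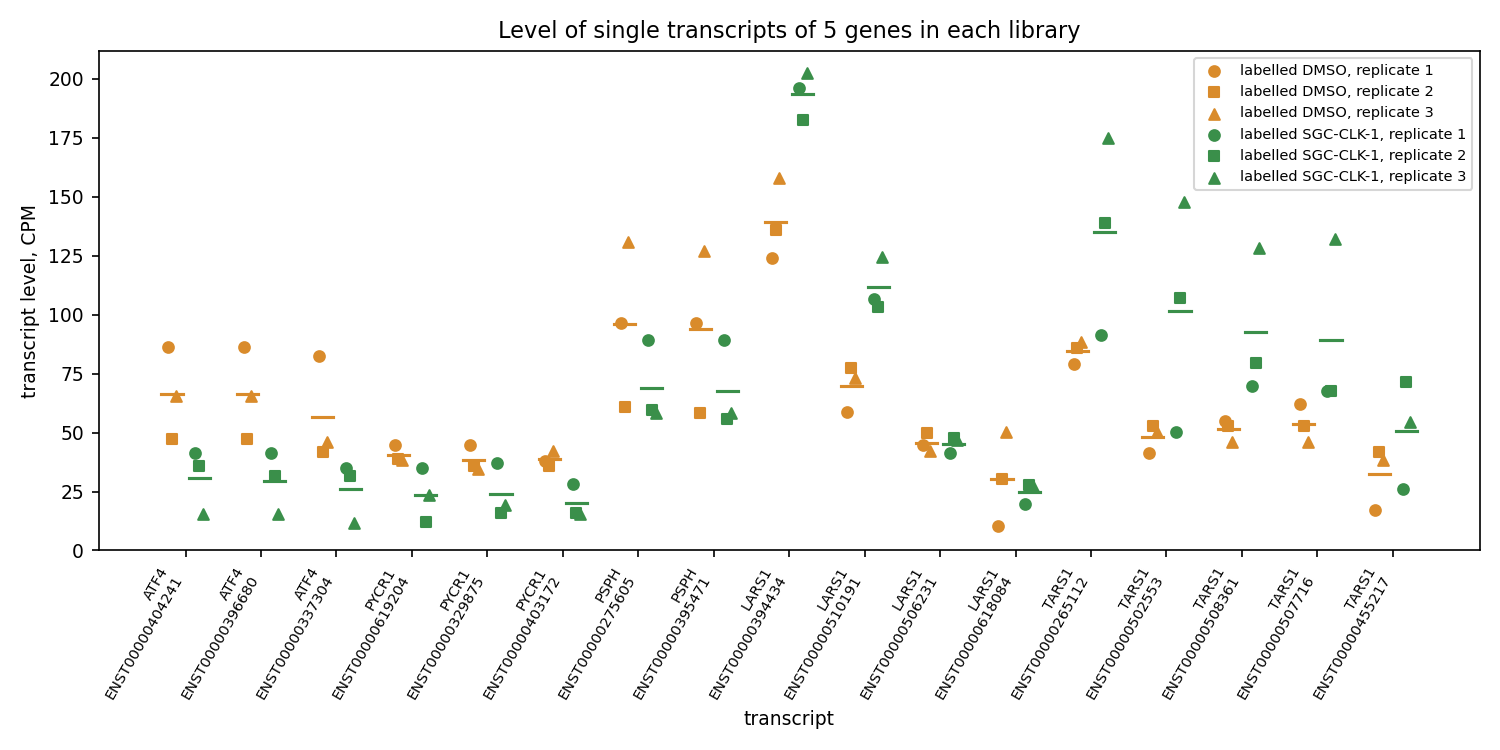
Level in CPM (linear axis from 0) of the transcripts with 50 or more counts of ATF4, PYCR1, PSPH, LARS1 and TARS1 in each RM82 library, with points for libraries, marker shapes for replicate numbers and short lines for group means. Transcripts of ATF4 and of PSPH repeat nearly the same points, and the 3 ATF4 transcripts have all SGC-CLK-1 points below all DMSO points.

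TARS1 had the transcript with the smallest adjusted p of the members. ENST00000502553, a protein-coding form, had 23, 27 and 38 counts in SGC-CLK-1 and 12, 19 and 13 in DMSO, with a log2 fold change of 0.99 (SE 0.35, edgeR adjusted p = 0.106). It was called only with the replicate number as a block (edgeR adjusted p = 0.0458, background 5.45%) and without SGC-CLK-1 replicate 1 (edgeR adjusted p = 0.0209, background 2.51%), and over the alternative settings its adjusted p ran up to 0.443. Once scaled, replicate 1 of SGC-CLK-1 fell below the highest DMSO library, so the groups overlapped. The most abundant TARS1 transcript, ENST00000265112, had 42, 35 and 45 counts against 23, 31 and 23, with a log2 fold change of 0.63 (SE 0.27, edgeR adjusted p = 0.216). ENST00000508361 and ENST00000507716, both annotated as targets of nonsense-mediated decay (the pathway that degrades messages with an early stop codon), had 32, 20 and 33 counts against 16, 19 and 12, and 31, 17 and 34 against 18, 19 and 12. They were at 0.80 (SE 0.31) and 0.69 (SE 0.32) on the log2 scale. Coding and decay-annotated TARS1 forms were on the same side, but a read can be counted on several of them, so they are not independent measurements.

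For LARS1, the coding transcript ENST00000394434 had 90, 46 and 52 counts in SGC-CLK-1 and 36, 49 and 41 in DMSO. A second coding form, ENST00000510191, had 49, 26 and 32 against 17, 28 and 19. They had log2 fold changes of 0.48 (SE 0.23) and 0.66 (SE 0.27), and in both the groups did not overlap once scaled. Of 6 retained-intron forms, only ENST00000506231 could be tested, at -0.04 (SE 0.34), with 19, 12 and 12 counts in SGC-CLK-1 and 13, 18 and 11 in DMSO. Among the untested ones, ENST00000504323 had 15, 10 and 8 counts against 7, 5 and 3, and ENST00000508667 had 9, 6 and 6 against 1, 7 and 2, both higher without overlap once scaled. The other 3 untested forms overlapped between the groups. Untested retained-intron forms of other members lay apart in either direction, as CARS1 ENST00000466442 (lower) and NARS1 ENST00000587366 (higher). Over all tested transcripts 22.9% did not overlap, and the share among untested ones was not counted. PSAT1 ENST00000376588 had 42, 20 and 20 counts against 17, 15 and 14, with a log2 fold change of 0.72 (SE 0.30, edgeR adjusted p = 0.192). PYCR1 ENST00000619204 had 16, 3 and 6 counts against 13, 14 and 10, at -0.67 on the log2 scale (SE 0.42). PSPH ENST00000275605 had 41, 15 and 15 counts against 28, 22 and 34. The PSPH transcripts ENST00000275605 and ENST00000395471 were at -0.39 and -0.38, and differed from each other by at most 1 count in a library. Leaving out single libraries moved some of these transcript values by over 1.5 times. PSPH ENST00000275605 was at -0.66 without SGC-CLK-1 replicate 1, -0.65 without DMSO replicate 2 and -0.13 without DMSO replicate 3, and ENST00000395471 at -0.67, -0.65 and -0.12, and at -0.25 without SGC-CLK-1 replicate 2. PYCR1 ENST00000619204 was at -1.17 and -0.40 without SGC-CLK-1 replicates 1 and 2. Without SGC-CLK-1 replicate 3, TARS1 ENST00000502553 was at 0.63 and ENST00000507716 at 0.35, and without DMSO replicate 1 ATF4 ENST00000337304 was at -0.66.

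As the inhibitor acts on a splicing kinase, the balance between transcripts of the same gene was tested as well. Of the members, 11 genes had enough transcripts for edgeR's test of differential usage, and none was called at an adjusted p of 0.05, against 0.277% of the 1805 genes tested. None of the 11 had an unadjusted p under 0.05 either, against 1.72% of all. The smallest was 0.518, for LARS1, and that of TARS1 was 0.958. Because a read can be counted on several transcripts of its gene, their counts are tied together. A shift in usage could therefore be missed, and the absence of calls does not show that usage was unchanged.

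Transcript classes were compared by their share of counts. Retained-intron transcripts took 15.3 ± 2.29% of synthetase counts in SGC-CLK-1 and 16.2 ± 0.862% in DMSO (SD, n = 3 each), and decay-annotated transcripts took 19.7 ± 1.69% and 19.2 ± 1.63%. For ATF4 and its targets the retained-intron share was 4.95 ± 1.62% in SGC-CLK-1 and 3.37 ± 0.755% in DMSO, and the decay-annotated share 12.8 ± 1.996% and 11.1 ± 1.17%. In each of these the groups overlapped. Transcripts of coding genes with no defined coding sequence took 2.84, 3.42 and 2.65% of synthetase counts in SGC-CLK-1 and 3.76, 4.18 and 3.97% in DMSO, without overlap. These shares rest on few counts, as the synthetases held 1161, 672 and 791 counts in SGC-CLK-1 and 665, 957 and 529 in DMSO. Over all matched transcripts the class with no defined coding sequence lay the other way, at 4.74 ± 0.0575% in SGC-CLK-1 and 4.50 ± 0.0433% in DMSO, again without overlap. The all-transcript shares of decay-annotated forms (7.65 ± 0.0133% against 7.52 ± 0.0493%) and coding forms (75.7 ± 0.115% against 76.3 ± 0.148%) did not overlap either. The members themselves differed widely: retained-intron transcripts held 70.2% of CARS1 counts, 50.1% of YARS1 counts and 46.0% of GARS1 counts over all libraries. Decay-annotated transcripts held 46.2% of SHMT2 counts, 45.9% of MARS1 counts, 44.1% of IARS1 counts and 40.6% of TARS1 counts. ATF4, ATF5, DDIT3, PSAT1, PYCR1 and SLC1A5 were counted on coding transcripts only.

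The wider pathway was read from 33 further genes, among them the eIF2 kinases, partners of ATF4 and other amino acid and one-carbon genes. Of these, 12 were tested, 7 of them higher and 5 lower in SGC-CLK-1 (median 0.13 on the log2 scale), and none passed an adjusted p of 0.05 in edgeR's test (0.236% of all genes did). At an unadjusted p under 0.05, 2 were higher and 1 was lower, against 6.89% and 6.97% of all genes. NUPR1, a small stress-induced transcriptional regulator, had 43, 21 and 19 counts in SGC-CLK-1 and 42, 49 and 38 in DMSO, and its groups did not overlap once scaled, at a log2 fold change of -0.83 (SE 0.28, edgeR adjusted p = 0.192). It lay on the same side as ATF4 and DDIT3. MTHFD1 and MTHFD1L, folate enzymes of the cytosol and the mitochondrion, were at 0.97 (SE 0.31, edgeR adjusted p = 0.163) and 1.44 (SE 0.48, edgeR adjusted p = 0.184), and neither overlapped between groups. MTHFD1 was at 0.63 without SGC-CLK-1 replicate 1. The eIF2 kinases EIF2AK4, EIF2AK1 and EIF2AK2 came to 0.54 (SE 0.41), 0.24 (SE 0.40) and 0.22 (SE 0.30), and overlapped between groups. EIF2AK4 was at 0.08 without DMSO replicate 2 and 0.84 without DMSO replicate 1. The fourth kinase, EIF2AK3 (PERK), was too scarce to be tested, with 7, 4 and 10 counts in SGC-CLK-1 and 2, 0 and 0 in DMSO, which did not overlap once scaled. PPP1R15A, which directs dephosphorylation of eIF2, was also untested, with 0, 1 and 0 counts against 3, 5 and 2, on the opposite side and without overlap. CEBPG, a dimer partner of ATF4, had 2, 14 and 3 counts against 0 in each DMSO library, and VLDLR, a lipoprotein receptor, 3, 2 and 0 against 3, 3 and 2, lower without overlap once scaled by TMM but overlapping with library size as the scale. These 4 were named after their values were seen, and are the untested genes of this list whose groups did not overlap. The other untested ones overlapped or had no counts. Over all tested genes, 19.7% did not overlap. EIF2S1, the kinases' substrate subunit, came to -0.21 (SE 0.21), the amino acid transporter SLC38A1 to -0.23 (SE 0.39) and CBS, which makes cystathionine, to -0.22 (SE 0.50). Over the alternative settings EIF2S1 lay between -0.32 and -0.14, whereas SLC38A1 reached 0.30 without DMSO replicate 1 and CBS 0.58 without DMSO replicate 2.

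Other tRNA charging genes were also compared with the member synthetases. The 6 other cytosolic synthetase genes tested divided evenly, 3 higher and 3 lower, with a median log2 fold change of -0.05, close to the 0.02 of the 12 members. The 3 scaffold proteins of the multi-synthetase complex, AIMP1, AIMP2 and EEF1E1, were lower, at -0.44 (SE 0.26), -0.35 (SE 0.31) and -0.93 (SE 0.47), and only EEF1E1 did not overlap between groups. EEF1E1 was at -1.42 without SGC-CLK-1 replicate 3 and at -0.61 from its most abundant transcript. AIMP2 was at -0.22 without SGC-CLK-1 replicate 2, -0.61 from its most abundant transcript and -0.59 from coding transcripts. Of 17 mitochondrial synthetases, 6 were tested, 5 higher and 1 lower, with a median of 0.23 and the highest value in HARS2 at 1.13 (SE 0.52, edgeR adjusted p = 0.350), which was 0.61 without SGC-CLK-1 replicate 3 and 1.90 without DMSO replicate 1. CARS2 was the only untested one whose groups did not overlap, and was named after its values were seen. It had 9, 10 and 7 counts in SGC-CLK-1 and 1, 4 and 0 in DMSO. None of these 15 genes passed an adjusted p of 0.05 in edgeR's test, against 0.236% of all genes, and 1, HARS2, had an unadjusted p under 0.05, against 13.9% of all genes.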

How the data were processed

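The authors base-called the reads with Guppy, mapped them to the Ensembl 98 transcriptome of hg38 with minimap2 (version 2.22 per the labels) keeping up to 3 secondary alignments, and deposited raw counts of deduplicated homotrimer UMIs per transcript. These 6 RM82 count files were used as deposited, with totals of 362826 to 666702 per library. Percentages from 17 identifier error reports, and counts of other cell lines, were not used here, nor were 4 columns of a series table. Transcripts were assigned to genes by identifier with GENCODE 44 (86362 of 93530 matched) and summed. Groups followed the labels. Counts were filtered with filterByExpr (minimum 10), TMM-scaled and compared with edgeR 4.0.16 (glmQLFit, glmQLFTest, diffSpliceDGE), with Benjamini-Hochberg adjustment over all features. Scripts were tested on simulated data. Alternatives were DESeq2 1.42.0, other scalings and filters, a replicate block, each library left out, the most abundant transcript and coding transcripts. The members and lists were chosen with earlier results of these data known. The members described in detail were the 6 with the smallest p in each direction, ATF4 among them. ATF5, AARS1 and VARS1 were given by library as well. Member transcripts were named likewise, 6 in each direction, and LARS1 ENST00000394434, the next by p among the higher ones, was added. Some untested transcripts and genes were also given by library. From the other lists up to 4 genes in each direction were picked, of which those described have a fold change. Intervals and limits cover counting error only.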

Additional observations from a re-analysis of the deposited data

How the results depend on the processing

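The values that moved most were counts of calls over all genes. The 15 genes past an adjusted p of 0.05 in edgeR (7 higher, 8 lower) became 24 with library size as the scale (16 higher, 8 lower), 169 with no filter, 64 with at least 10 counts in every library, 107 with DESeq2, 147 with the most abundant transcript and 0 with coding transcripts only (724 at an unadjusted p under 0.05). Leaving out 1 library gave 1 to 21 genes, with 2, 1 and 2 without SGC-CLK-1 replicates 1, 2 and 3, and 1, 21 and 6 without DMSO replicates 1, 2 and 3. The 310 single transcripts became 162 with no filter, 173 with at least 10 counts in every library and 113 with DESeq2, and 81 to 363 with 1 library left out, with 81 and 130 without SGC-CLK-1 replicates 2 and 3 and 101 without DMSO replicate 1. The 5 genes with changed transcript usage became 1 with at least 10 counts in every library and 1 to 5 with 1 library left out. The cause was not tested.

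Among the members, apart from the block described below, edgeR called none under any alternative except ATF4 (-1.14, adjusted p = 0.0467) and DDIT3 (-1.78, adjusted p = 0.0276) with no filter, and TARS1 ENST00000502553 without SGC-CLK-1 replicate 1 (1.41, adjusted p = 0.0209). DESeq2 called DDIT3. DDIT3 had no value from the most abundant transcript, which was too scarce. The synthetase median was 0.17 without DMSO replicate 2 and -0.037 to 0.17 over all libraries left out in turn. Directions reversed for SARS1 (0.033) and CBS (0.58) without DMSO replicate 2, and for EIF2AK2 (-0.071) and SLC38A1 (0.30) without DMSO replicate 1. With each library left out in turn SARS1 ran from -0.66 to 0.033, CBS from -0.57 to 0.58, EIF2AK2 from -0.071 to 0.56 and SLC38A1 from -0.53 to 0.30. The other 500 values of single genes and transcripts under an alternative kept their direction and side of the threshold, and 5 passed it only under the alternative.

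Whether replicate numbers pair the libraries was not settled. Same-numbered libraries had deviations correlated weakly, at 0.064, 0.024 and 0.031. Libraries with different numbers ran from -0.074 to 0.036, the highest being SGC-CLK-1 replicate 3 with DMSO replicate 2. With a replicate block the calls were 36 genes, 427 transcripts and 4 genes in usage, and among members TARS1 ENST00000502553 was called (1.00, adjusted p = 0.0458).

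At 362826 to 666702 counts per library, 9 of the 33 genes had too few counts to be tested.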
